A study of Saccharomyces cerevisiae with 4 samples.

Results

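Removal of 2 genes can change a transcript by more or by less than the changes caused by each removal alone would add up to. This account is about the genes of the budding yeast Saccharomyces cerevisiae in which a strain lacking both UBP10 and SIR4 lay far from that sum. The sum was taken on the log2 scale, as the difference of the ubp10 null from the wild type plus that of the array labelled as sir4 null, called the sir4-labelled array below, from the wild type. The departure of a gene is the log2 difference of the double null from the wild type minus this sum. A departure of 0 means that the removals added up, a positive one that the double null lay above the sum, and a negative one that it lay below. Of 5656 genes on the arrays, 4966 were bright enough to be read, and 267 had a departure of at least 2 log2 units, which is 4-fold. The double null was above the sum in 158 genes (3.18% of the 4966) and below it in 109 (2.19%).

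The strains were a ubp10 sir4 double null, a ubp10 null, a sir4 null and the wild type W303-1A, a haploid laboratory strain of mating type a. All were harvested during exponential growth, and total RNA was read on Affymetrix Yeast Genome S98 arrays. The sources used here do not say how the deletions were built. Each strain had 1 array, so no value below has a replicate, an error or a test, and precision is limited by the number of arrays. The genes were chosen by the same values that describe them, and examples outside a fixed rule for naming were picked after their values were seen.

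UBP10 encodes a deubiquitinating enzyme, which takes ubiquitin off histone H2B and helps to keep silenced chromatin in place. SIR4 encodes a scaffold of the silencing complex that covers telomeres and the silent mating cassettes HML and HMR. Those cassettes hold unexpressed copies of the mating-type genes. When a haploid a cell expresses the alpha2 protein from them, alpha2 represses the a-specific genes, and the a1 and alpha2 proteins together repress the haploid-specific genes.

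Values are given in scaled intensity units. The deposited intensities of each array were divided by a factor that gave the 4 arrays a common median, and values under a floor of 6.95 units, 3 times the noise SD, were raised to it. A gene was read where its brightest value was at least 13.9 units, and a gene with several probe sets has the mean of their log2 values. A value at the floor is only an upper limit. A departure was counted where such limits could only make it larger, and it is then given as a bound. Among the 4428 genes above the floor on all 4 arrays, the median departure was 0.17 with an SD of 0.96, and the middle 90% lay between -1.35 and 1.66. Just inside the threshold were MEP2 at 2.003 and TDA1 at -2.01, and just outside were MAK32 at 1.99 and YGR240C-A at -1.998.

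The targeted genes were read first. UBP10 lay at the floor in the double null and the ubp10 null, against 221.3 units on the sir4-labelled array and 301.9 in the wild type. SIR4 had 13.2 units in the double null, was at the floor in the ubp10 null, and had 17.0 units on the sir4-labelled array and 13.2 in the wild type. The probe set for SIR4 was thus not lower where SIR4 is labelled as missing, and it stayed close to the floor throughout. Every direction drawn from the sir4 genotype therefore relies on the labels alone.

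Both the sir4-labelled array and the double null stood apart in controls, and every departure uses both. In deposited units, the 5′ probe set of the actin gene ACT1 read 945.5 in the double null, 1907.3 in the ubp10 null, 16.1 on the sir4-labelled array and 1464.1 in the wild type. The 3′ end of ACT1 read 1383.3, 2136.5, 1399.6 and 2265.2 on those arrays in that order, so that the sir4-labelled array matched the double null at the 3′ end and lay far below it at the 5′ end. In 152 genes, several probe sets stayed above the floor throughout, and they differed by at least 2 log2 units in 6 genes for the double null against wild type. They did so in 9 genes for the ubp10 null and in 48 for the sir4-labelled array. The double null read lowest in the hybridization controls BioB, BioC, BioDn and CreX, which are not yeast RNA. The 5′ probe set of CreX had 466.3 deposited units in the double null, 1863.0 in the ubp10 null, 713.4 on the sir4-labelled array and 1565.8 in the wild type, and the part of this in the departures was not tested. A low reading on the sir4-labelled array alone raises the departure. With its difference from wild type set to 0, 26 of the 158 genes above the sum and 64 of the 109 below it still lay at least 2 log2 units away in the same direction.

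**Figure D1:**
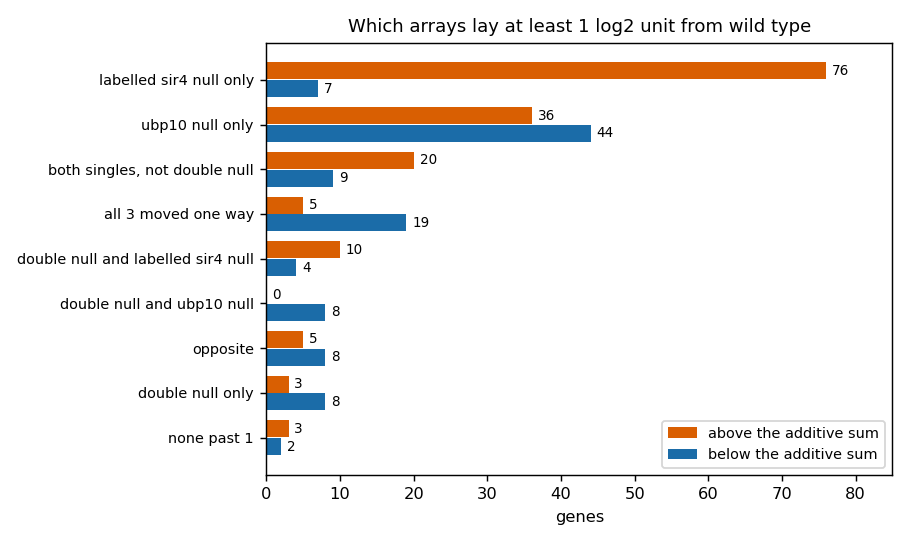
Number of genes by which of the 3 mutant arrays lay at least 1 log2 unit from wild type, for genes above (orange, 158 genes) and below (blue, 109 genes) the additive sum. "Opposite" marks genes whose double null and a single null moved at least 1 log2 unit in opposite directions. The largest class of each group moved on 1 single null alone, with 76 genes above the sum moved only on the sir4-labelled array and 44 genes below it moved only in the ubp10 null.

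Both groups were made up mostly of genes in which the double null was closer to the wild type than the sum. The sum was at least 1 log2 unit below wild type in 153 of the 158 genes above it, and at least 1 above wild type in 93 of the 109 genes below it. The double null lay within 1 log2 unit of wild type in 135 and 62 of them. Since the sum enters the departure with a minus sign, a large sum makes a departure of the opposite sign more likely, and these counts describe the genes chosen. By contrast, the double null read lower than each of the other 3 arrays in 42 of the 109 genes below the sum, and higher than each of them in 71 of the 158 above it.

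In the a-specific and haploid-specific lists the double null moved further from wild type, by the median, than either array labelled as a single null. The median log2 differences for a-specific genes were -5.02 in the double null, -0.99 in the ubp10 null and -1.09 on the sir4-labelled array. For haploid-specific genes they were -2.77, -0.42 and -0.06. The SIR4 probe set could not check the sir4 label, and the part of that label in these departures was not tested. Of 7 a-specific genes, which only a cells express, 6 were bright enough, and all 6 lay below the sum, with a median departure of -2.94 against 0.16 over all 4966 genes. Over all genes, 2.19% lay below the sum. In the wild type these 6 a-specific genes read 117.4 to 1360.7 units. MFA2, a precursor gene of the a-factor pheromone, had 12.6 units in the double null, 1407.5 in the ubp10 null, 625.7 on the sir4-labelled array and 1360.7 in the wild type, a departure of -5.69. The sir4-labelled array was 1.12 log2 units below wild type, and the double null was the low array by far. MFA1, the other a-factor gene, had 15.7 units in the double null, 568.1 in the ubp10 null, 332.7 on the sir4-labelled array and 739.2 in the wild type, and both of its probe sets departed (-4.15 and -3.89). STE6, the exporter of a-factor, departed by -2.37, with 10.2 units in the double null and 61.1 to 117.4 on the other arrays.

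The receptor and adhesion genes of a cells reached the floor in the double null, so their departures are bounds. STE2, the alpha-factor receptor, had 137.8 units in the ubp10 null, 143.4 on the sir4-labelled array and 281.5 in the wild type, a departure of -3.34 or lower. BAR1, the protease that degrades alpha-factor, departed by -2.54 or lower, and AGA2, the binding subunit of a-agglutinin, by -2.13 or lower. In these 3 genes both single nulls were themselves lower than wild type by 0.97 to 1.11 log2 units. For STE2 and BAR1 a sum taken on linear intensity already falls to the floor, which leaves no departure (0.00). AGA2 had 63.6 units in the ubp10 null, 63.6 on the sir4-labelled array and 132.6 in the wild type. Such a sum falls to the floor for AGA2 as well.

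Haploid-specific genes, which both haploid types express and diploids repress, were likewise often low in the double null. Of 12 bright enough, 6 lay below the sum and 0 above, with a median of -2.29. RME1, a repressor of meiosis, had 11.03 units in the double null, 271.8 in the ubp10 null, 100.7 on the sir4-labelled array and 185.0 in the wild type, a departure of -3.75. FAR1, the cyclin-dependent kinase inhibitor of the pheromone response, was at the floor in the double null, against 90.1 units in the ubp10 null, 143.5 on the sir4-labelled array and 144.8 in the wild type. STE5, the scaffold of the mating kinase cascade, had 7.2 units in the double null and 51.1 to 64.6 on the other arrays, a departure of -3.38. STE18, the gamma subunit of the mating G protein, departed by -3.58 or lower.

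In 2 of the 6 haploid-specific genes below the sum, the single nulls stood at least 1 log2 unit to opposite sides of the wild type. GPA1, the alpha subunit of that G protein, had 7.9 units in the double null, 26.4 in the ubp10 null, 182.2 on the sir4-labelled array and 90.5 in the wild type. HO, the mating-type switching endonuclease, was at the floor in the double null and had 32.4 units in the ubp10 null, 191.0 on the sir4-labelled array and 94.9 in the wild type. Both were therefore lowest in the double null although the sir4-labelled array was the highest. STE4, the beta subunit, fell short of the threshold at -1.84, and STE12, the transcription factor of the pathway, did not share the pattern (0.46). Outside the lists, YGL193C was also lowest in the double null and highest on the sir4-labelled array (-3.66 or lower). The ubp10 null had 34.3 units, the sir4-labelled array 117.7 and the wild type 45.8, against the floor in the double null. AFB1 was also at the floor in the double null (-3.37 or lower), but both single nulls were above wild type. It had 43.9 units in the ubp10 null, 31.7 on the sir4-labelled array and 19.4 in the wild type. PRM5, a pheromone-regulated gene and the single one of 11 pheromone-induced genes below the sum, read 39.8 units in the double null, 339.5 in the ubp10 null, 101.5 on the sir4-labelled array and 169.6 in the wild type.

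The probe sets of the mating cassettes themselves did not reach the threshold. The brighter alpha1 probe set, listed for several copies, had 79.0 units in the double null, 17.4 in the ubp10 null, 47.0 on the sir4-labelled array and 21.1 in the wild type, a departure of 1.02. The 2 alpha2 probe sets departed by -0.31 and -0.42. The brightest of the HMRA1 probe sets, at -1.79, was highest in the ubp10 null (328.8 units) and read 183.8 in the double null. Of 22 genes of silencing and H2B ubiquitination that were bright enough, 0 were called, with a median of 0.32. RAP1, a telomere- and silencer-binding factor, came nearest at 1.78.

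**Figure D2:**
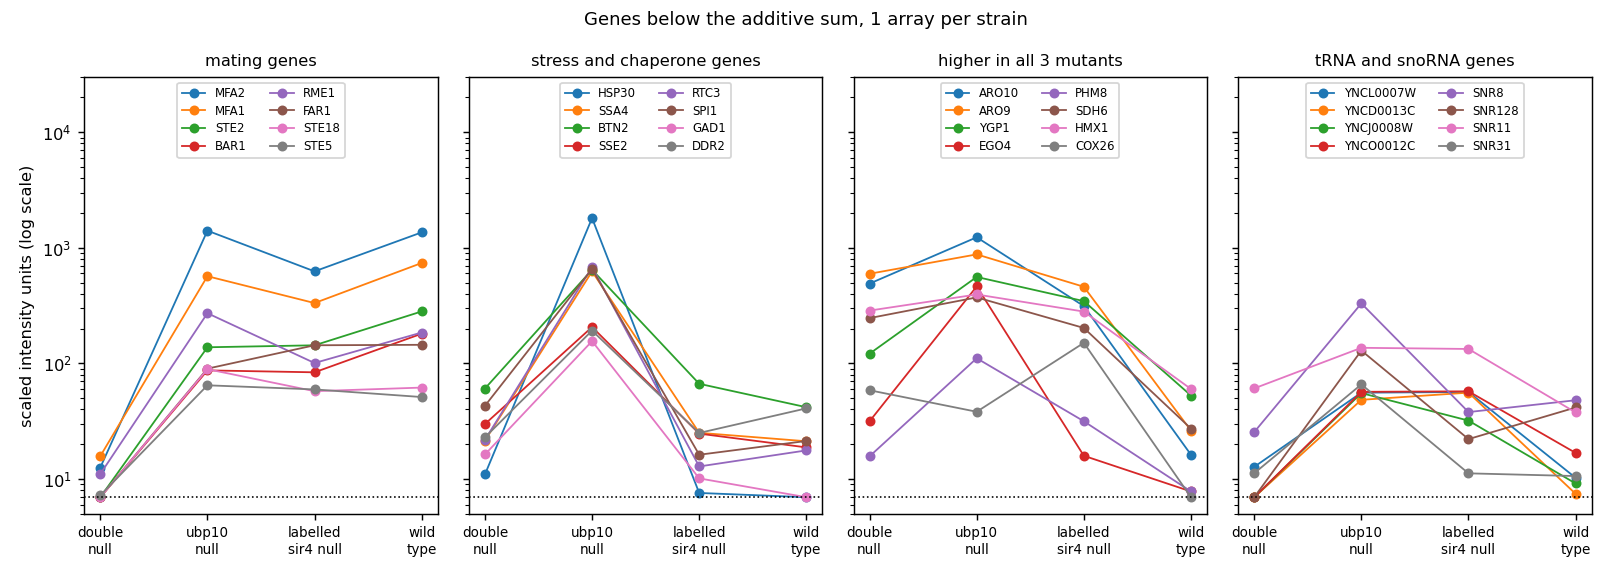
Scaled intensity (log scale) of genes below the additive sum on each of the 4 arrays, 1 array per strain, with lines to guide the eye and the floor of 6.95 units dotted. Mating genes read lowest in the double null, stress and chaperone genes highest in the ubp10 null (HSP30 at 1807.5 units), and genes higher in all 3 mutants read lowest in the wild type.

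Stress and chaperone genes lay below the sum in another way, since they were high mainly in the ubp10 null. Of 24 heat shock and chaperone genes bright enough, 5 (20.8%) lay below the sum, against 2.19% of all genes, and 0 above. The median departure was -0.73. HSP30, a heat shock protein of the plasma membrane, had 10.9 units in the double null, 1807.5 in the ubp10 null and 7.6 on the sir4-labelled array and was at the floor in the wild type, a departure of -7.49 or lower. It was the largest departure among all genes counted. SSA4, an inducible Hsp70 chaperone, had 21.5 units in the double null, 625.2 in the ubp10 null, 25.1 on the sir4-labelled array and 21.2 in the wild type, a departure of -5.11. Its double null value was within the range of the 2 arrays with UBP10 present. BTN2, a sorting factor for misfolded proteins, departed by -4.09 and SSE2, an Hsp110 partner of Hsp70, by -3.18. The departure was negative in 19 of the 24 genes, and the rest of the list ran up to 0.67 in HSP60, the mitochondrial chaperonin.

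Some of the rise of these genes remained in the double null. HSP42, a small heat shock protein, had 106.0 units in the double null, 929.9 in the ubp10 null, 34.3 on the sir4-labelled array and 44.0 in the wild type. The double null was 1.27 log2 units above wild type, and the departure was -2.77. HSP26 had 33.2 units in the double null and 182.1 in the ubp10 null and was at the floor on the other 2 arrays, which left its departure of -2.46 unresolved. HSP104, the disaggregase, reached -1.95 and HSP82, an Hsp90, -1.66.

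General stress genes had this shape in part. Of 28 bright enough, 7 lay below the sum and 0 above, and 24 had a negative departure, with a median of -1.18. RTC3 had 21.8 units in the double null, 680.7 in the ubp10 null, 12.8 on the sir4-labelled array and 17.7 in the wild type, a departure of -4.50. SPI1, a stress-induced protein of the cell wall, had 42.9 units in the double null, 655.3 in the ubp10 null, 16.2 on the sir4-labelled array and 21.3 in the wild type (-3.54). GAD1, glutamate decarboxylase, departed by -3.80 or lower, and GPH1, glycogen phosphorylase, by -2.98 or lower. Of the same 28 genes, 20 were at least 1 log2 unit above wild type in the ubp10 null, and in 10 the double null was as far above the sir4-labelled array. Over all genes these shares were 10.2% and 9.40%. HSP12, a membrane-protecting stress protein, showed that the list was not uniform: it had 186.5 units in the double null, 115.9 in the ubp10 null, 54.9 on the sir4-labelled array and 30.1 in the wild type, and its departure was -0.18. HXK1, a hexokinase, kept 103.4 units in the double null and had 193.1 in the ubp10 null.

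Some genes outside these lists were also highest in the ubp10 null. STP4, a zinc finger protein, had 20.02 units in the double null, 312.2 in the ubp10 null, 16.4 on the sir4-labelled array and 12.7 in the wild type (-4.33). RGI1, a gene of respiratory growth, had 24.2 units in the double null, 523.5 in the ubp10 null, 14.2 on the sir4-labelled array and 7.2 in the wild type (-5.42). PNC1, the nicotinamidase that clears an inhibitor of the Sir2 deacetylase, read 310.9 units in the double null and 1621.2 in the ubp10 null, against 159.7 on the sir4-labelled array and 179.4 in the wild type (-2.21). TDH1, a glyceraldehyde-3-phosphate dehydrogenase, was the 1 called gene of 16 in glycolysis and fermentation, at -3.52. SPT7 and SPT20, structural subunits of the SAGA coactivator complex, departed by -2.44 and -2.35. The double null had 34.03 and 21.5 units of them, and the ubp10 null 108.1 and 77.8. The sir4-labelled array had 71.1 and 34.9 units, and the wild type 41.5 and 24.7. SET3, a subunit of a histone deacetylase complex, departed by -3.24. It had 8.1 units in the double null, 99.5 in the ubp10 null, 23.3 on the sir4-labelled array and 30.1 in the wild type. Its double null thus also lay below wild type, with a log2 difference of -1.88.

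For 4 genes raised in the ubp10 null the floor left the departure unresolved. ROQ1, a regulator of ubiquitination under stress, had 321.1 units in the ubp10 null, 7.9 in the wild type and only upper limits on the other 2 arrays. MGA1, YRO2 and FMP48 had 204.2, 200.3 and 99.8 units in the ubp10 null and lay at the floor on the other 3 arrays. With all values at the floor taken as they stand, their departures would be -5.34, -4.88, -4.85 and -3.84.

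In 17 genes below the sum, YGP1 and TSL1 of the general stress list among them, all 3 mutants were at least 1 log2 unit higher than wild type, but the double null less so than the sum. Over all genes, 5.68% were that much higher in the double null, 10.2% in the ubp10 null and 5.78% on the sir4-labelled array. ARO10, the phenylpyruvate decarboxylase that acts in breaking down aromatic amino acids, had 490.3 units in the double null, 1233.9 in the ubp10 null, 313.2 on the sir4-labelled array and 16.2 in the wild type, a departure of -5.60. ARO9, the aminotransferase of that pathway, had 596.3 units in the double null, 877.7 in the ubp10 null, 460.3 on the sir4-labelled array and 26.2 in the wild type (-4.69). In both genes the double null lay between the single nulls, so that a reading against the larger single effect leaves only -1.33 and -0.56. The same list of aromatic and branched amino acid catabolism held 9 other genes bright enough, 0 of which were called, and its median was -0.09.

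HMX1, the heme oxygenase, read 286.4 units in the double null, 394.7 in the ubp10 null, 280.7 on the sir4-labelled array and 60.0 in the wild type (-2.69). SDH6, an assembly factor of succinate dehydrogenase, had the same order of arrays with 246.6, 372.3, 202.6 and 27.3 units (-3.49). YGP1, a secreted glycoprotein induced on nutrient limitation, fell short of both single nulls, with 121.3 units in the double null, 559.6 in the ubp10 null, 345.8 on the sir4-labelled array and 52.7 in the wild type (-4.92). PHM8, a nucleotidase induced by low phosphate, had 15.7, 110.8, 31.6 and 7.8 units on those arrays in that order (-4.84), and it was the 1 called gene of 17 in the phosphate list. EGO4 had 31.6 units in the double null, 463.6 in the ubp10 null, 15.9 on the sir4-labelled array and 7.8 in the wild type (-4.90).

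Some genes below the sum were instead highest on the sir4-labelled array. COX26, a subunit of cytochrome c oxidase, had 58.5 units in the double null, 38.1 in the ubp10 null, 150.5 on the sir4-labelled array and was at the floor in the wild type (-3.82 or lower). Of 7 mitochondrially encoded genes bright enough, 2 (28.6%) lay below the sum, against 2.19% of all genes. The list median was -1.60. COX3, a core subunit of that oxidase, had 18.7 units in the double null, 11.5 in the ubp10 null and 113.5 on the sir4-labelled array and was at the floor in the wild type (-3.34 or lower). COB, the cytochrome b gene, departed by -2.20, on probe sets at -1.84 and -2.56. ATP6 from the same genome did not follow, at 0.57. INO1, inositol phosphate synthase, had 27.8 units in the double null, 18.2 in the ubp10 null, 107.5 on the sir4-labelled array and 11.6 in the wild type (-2.61).

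Small RNA genes formed a group that was noticed only after the values were seen. Of 57 tRNA genes bright enough, 6 (10.5%) lay below the sum, against 2.19% of all genes, and 0 above. The floor left 31 unresolved, and the list median was -1.39. In 31 of the 57 the ubp10 null was at least 1 log2 unit above wild type, which was the case for 10.2% of all genes, and in 20 the double null was at least 1 below wild type, against 7.25% of all genes. The sir4-labelled array was at least 1 below wild type in 13, against 12.8% of all genes. The floor weighed heavily here: it held 34 of the 57 genes in the double null, 0 in the ubp10 null, 32 on the sir4-labelled array and 9 in the wild type. YNCL0007W, a tRNA gene, had 12.7 units in the double null, 55.8 in the ubp10 null, 56.6 on the sir4-labelled array and 10.2 in the wild type (-4.60). YNCD0013C, YNCJ0008W and YNCO0012C were at the floor in the double null and departed by -5.71, -4.80 and -4.80 or lower. The probe sets of these 4 genes are of a kind that near-identical copies can share, so they are not independent readings. YNCL0044W and YNCE0012W, with 136.2 and 127.6 units in the ubp10 null, lay at the floor in the double null and on the sir4-labelled array, and were unresolved.

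Of 37 snoRNA genes, which guide chemical modification of ribosomal RNA, 5 (13.5%) lay below the sum, against 2.19% of all genes, and 0 above. The list median was -0.94. SNR8 had 25.5 units in the double null, 330.4 in the ubp10 null, 37.9 on the sir4-labelled array and 48.0 in the wild type (-3.36). SNR128 was at the floor in the double null, against 129.1 units in the ubp10 null, 22.1 on the sir4-labelled array and 41.5 in the wild type. SNR11 differed from these in that both single nulls were high, with 60.8 units in the double null, 136.4 in the ubp10 null, 133.3 on the sir4-labelled array and 37.6 in the wild type (-2.99). YMR030W-A, a short open reading frame, had 7.0 units in the double null, 26.1 in the ubp10 null, 49.8 on the sir4-labelled array and 7.4 in the wild type (-4.65).

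Genes above the sum were led by low readings on the sir4-labelled array. Of the 158, 113 were at least 1 log2 unit below wild type there, against 12.8% of all genes, and in 76 this was the only array that far from wild type. DED1, an RNA helicase of translation initiation, had 175.8 units in the double null, 386.7 in the ubp10 null, 14.1 on the sir4-labelled array and 309.5 in the wild type (3.32). YME1, a protease of the mitochondrial inner membrane, had 105.8, 154.1, 7.2 and 111.9 units in the same order (3.43). PUB1, an RNA-binding protein, departed by 3.16. It read 446.4 units in the double null, 595.0 in the ubp10 null, 37.98 on the sir4-labelled array and 454.1 in the wild type. IMO32 departed by 4.14, with 84.5 units in the double null, 35.5 in the ubp10 null, 7.0 on the sir4-labelled array and 52.0 in the wild type. With the sum on linear intensity DED1 and YME1 departed by only 0.95 and 1.10, and YNL190W, at 4.02 on the log scale, turned to -1.15.

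Where such genes had a second probe set, it often stayed at the sum. RPS0A, a protein of the small ribosomal subunit, had a probe set with 714.7 units in the double null, 1219.8 in the ubp10 null, 9.0 on the sir4-labelled array and 1507.6 in the wild type, a departure of 6.61. Its other probe set had 742.0, 1946.2, 727.9 and 1924.6 units and a departure of 0.01. ECM33, a cell wall protein gene, split into 5.48 and 0.11, ASC1, a ribosome-associated protein gene, into 4.31 and 0.01, and IMD4, of guanine nucleotide synthesis, into at least 5.14 and 0.20. Only RPL7B, with 226.7 units in the double null, 594.5 in the ubp10 null, 16.3 on the sir4-labelled array and 828.0 in the wild type, departed on all its probe sets among the 4 ribosomal protein genes called, and its probe sets can share signal with those of RPL7A, its near-identical copy. Among all genes with several probe sets, 74 had at least 1 probe set above the sum, and in 17 of them the mean was above it too. Of those 17, all probe sets were above the threshold in 3. Below the sum the corresponding counts were 15, 3 and 2. By probe set, 258 of 6695 bright enough lay above the sum (3.85%) and 200 below (2.99%). Among those with 1 gene symbol, 11.8% of probe sets from genes with several lay above the sum, against 2.996% of those that were the only one of their gene. The part of the 5′ readings in these departures was not tested.

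The ergosterol, purine and ribosome biogenesis lists were among many lists with medians above the 0.16 of all genes, of which 3.18% lay above the sum. Amino acid biosynthesis (0.56), iron (0.42) and the proteasome (0.39) were others. The purine list had 3 of 20 above the sum, a larger share than over all genes, and a median of 0.63. The ergosterol list had 1 of 27 and 0.58, and ribosome biogenesis 3 of 109 and 0.45, with shares near that of all genes. GCV1, a subunit of glycine cleavage, led the purine list, with 76.0 units in the double null, 80.3 in the ubp10 null, 12.8 on the sir4-labelled array and 122.9 in the wild type (3.18). In the iron list 3 of 26 were above and 1 was below, 15.4% together, against 3.18% above and 2.19% below over all genes. MRS4, a mitochondrial iron carrier, was at the floor on the sir4-labelled array and departed by at least 3.38. ISU1, the scaffold of iron-sulfur cluster assembly, departed by 2.89, with 247.7 units in the double null and 63.1 on that array. All the purine and iron genes above the sum lay at least 1 log2 unit from wild type on the sir4-labelled array alone. Of the 76 genes of that kind above the sum, 0 stayed there with the difference of that array set to 0.

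**Figure D3:**
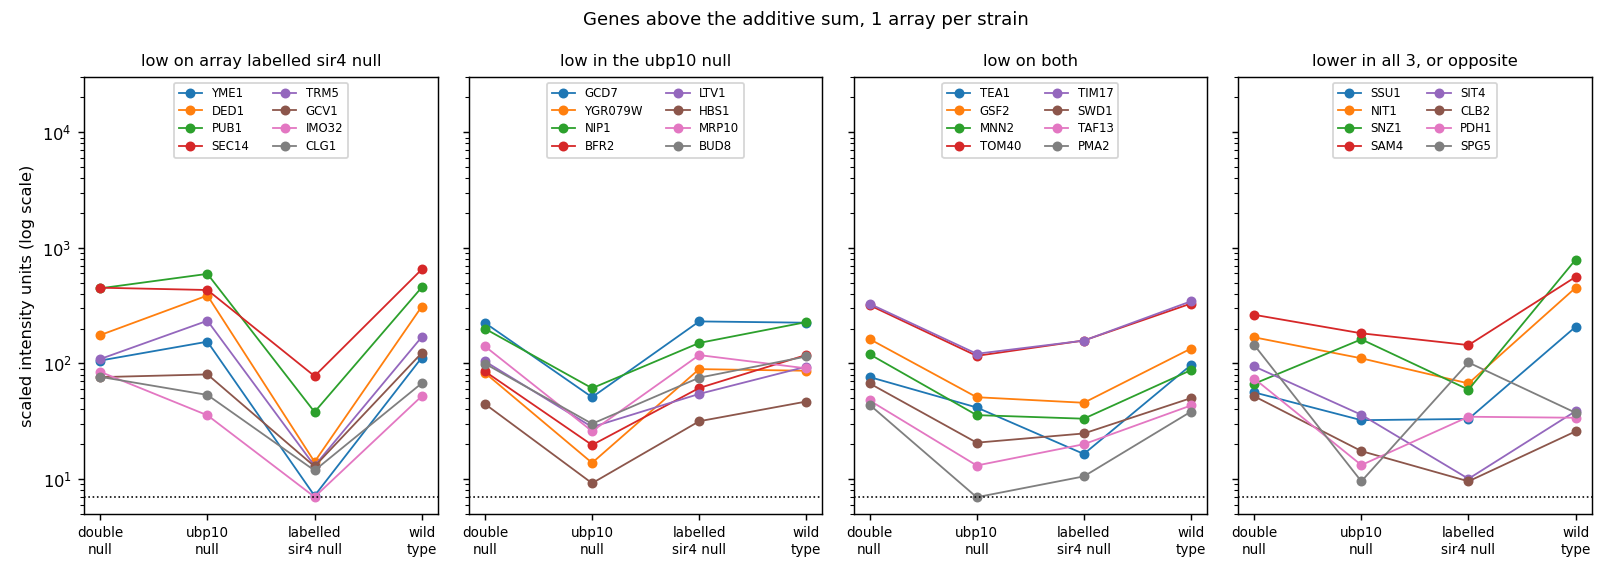
Scaled intensity (log scale) of genes above the additive sum on each of the 4 arrays, 1 array per strain, with lines to guide the eye and the floor of 6.95 units dotted. In the leftmost panel only the sir4-labelled array is low, in the next only the ubp10 null, and in the third both, while the double null is near the wild type.

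A further 36 genes above the sum were at least 1 log2 unit lower in the ubp10 null and near wild type in the double null and on the sir4-labelled array, where near means within 1 log2 unit. With the difference of that array set to 0, 19 of the 36 still lay at least 2 log2 units above. GCD7, a subunit of the translation initiation factor eIF2B, had 224.3 units in the double null, 51.0 in the ubp10 null, 230.8 on the sir4-labelled array and 224.9 in the wild type (2.10). YGR079W had 82.7 units in the double null, 13.8 in the ubp10 null, 89.2 on the sir4-labelled array and 86.3 in the wild type (2.54). BFR2, a ribosome biogenesis factor, had 85.2, 19.7, 61.3 and 118.4 units in the same order (3.07). NIP1, a subunit of initiation factor eIF3, departed by 2.31 and HBS1, a ribosome rescue factor, by 2.85. MRP10, of the mitochondrial ribosome, had 140.6 units in the double null, 25.9 in the ubp10 null, 118.0 on the sir4-labelled array and 90.6 in the wild type (2.06).

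Another 19 genes were lower by at least 1 log2 unit in both single nulls and within 1 of wild type in the double null. Among genes above the sum with such a double null, only CAK1, the kinase that activates Cdc28, had single nulls that far to opposite sides. They differed from wild type by -2.26 in the ubp10 null and 1.02 on the sir4-labelled array (2.14). TOM40, the pore of the mitochondrial outer membrane translocase, had 318.7 units in the double null, 116.2 in the ubp10 null, 157.8 on the sir4-labelled array and 329.4 in the wild type (2.52). TIM17, a subunit of the inner membrane translocase, had 327.9, 121.1, 157.4 and 344.7 units on those arrays (2.57). GSF2, an endoplasmic reticulum protein for hexose transporter export, had 162.4 units in the double null, 51.0 in the ubp10 null, 45.6 on the sir4-labelled array and 134.3 in the wild type (3.23). TEA1, a transcription activator of Ty1 elements, had 76.2, 41.6, 16.4 and 96.7 units in that order (3.43). PMA2, a plasma membrane proton pump, was at the floor in the ubp10 null and had 43.9 units in the double null, 10.5 on the sir4-labelled array and 38.2 in the wild type, a departure of at least 4.52. SWD1, a subunit of the COMPASS histone methyltransferase, had 67.1 units in the double null, 20.6 in the ubp10 null, 24.7 on the sir4-labelled array and 50.05 in the wild type (2.72).

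TLC1, the RNA component of telomerase, illustrates the split between probe sets. One read 108.2 units in the double null, 26.8 in the ubp10 null, 16.2 on the sir4-labelled array and 101.1 in the wild type, a departure of 4.65. The other read 121.7, 70.5, 187.7 and 106.8 units in the same order and departed by -0.03. Both were lower than wild type in the ubp10 null, while only the first was low on the sir4-labelled array.

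In 5 genes above the sum all 3 mutants were at least 1 log2 unit lower than wild type, but the double null less so than the sum. SSU1, the sulfite pump, had 56.1 units in the double null, 32.3 in the ubp10 null, 33.1 on the sir4-labelled array and 207.4 in the wild type (3.45). NIT1, a nitrilase, had 168.1, 110.7, 67.1 and 451.3 units in that order (3.35). SNZ1, of vitamin B6 synthesis, had 66.7 units in the double null, 161.5 in the ubp10 null, 59.3 on the sir4-labelled array and 790.2 in the wild type (2.46). Against the larger single effect alone SSU1 and NIT1 departed by 0.80 and 1.33. In 5 other genes the double null was at least 1 log2 unit higher than wild type while a single null was at least 1 lower. SIT4, a protein phosphatase catalytic subunit, had 94.1 units in the double null, 35.9 in the ubp10 null, 10.03 on the sir4-labelled array and 38.6 in the wild type (3.33). SPG5, a proteasome assembly factor of stationary phase, had 144.1 units in the double null, 9.5 in the ubp10 null, 101.8 on the sir4-labelled array and 37.4 in the wild type (2.47). CLB2, a mitotic cyclin, had 51.9, 17.4, 9.5 and 25.8 units on those arrays (3.01).

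**Figure D4:**
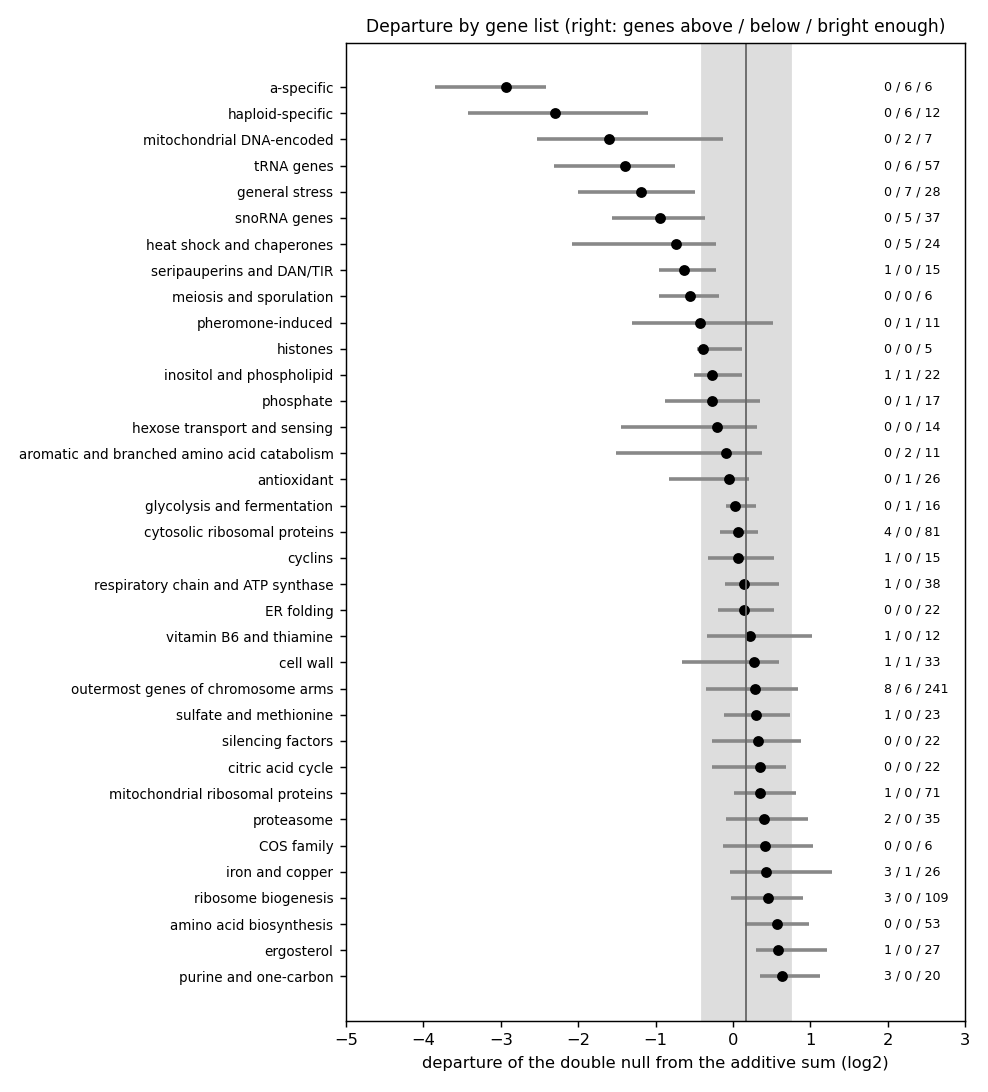
Departure of the double null from the additive sum for 35 gene lists, with the median (point), the middle 50% of genes (bar) and, at the right, the genes above the sum, below it and bright enough. The grey band and line give the middle 50% and the median of all 4966 genes. The a-specific and haploid-specific lists lie furthest to the left, at medians of -2.94 and -2.29.

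Some lists lay far below wild type in the double null and yet near the sum. Cytosolic ribosomal proteins had a median departure of 0.06 with 4 of 81 above the sum (4.94%, against 3.18% of all genes). Their median log2 difference from wild type was -1.30 in the double null, -0.09 in the ubp10 null and -1.31 on the sir4-labelled array. Glycolysis and fermentation genes had a median departure of 0.03, with median differences from wild type of -1.38, 0.09 and -1.57 in the same order. The 98th percentile of scaled intensity was 839.6 units in the double null, 1835.7 in the ubp10 null, 845.6 on the sir4-labelled array and 1801.8 in the wild type. What part this had in the levels of these bright lists was not tested. Amino acid biosynthesis had 0 of 53 called and a median of 0.56. Among the outermost 10 genes of each chromosome arm, where SIR proteins act, 8 of 241 lay above the sum and 6 below, 5.81% together, against 3.18% above and 2.19% below over all genes.

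The departure also compares the removal of UBP10 with SIR4 present and with SIR4 absent, and these comparisons share no array. Over the 4428 genes above the floor throughout, the 2 log2 differences correlated at r = 0.18 (Spearman 0.18) across genes, which are not independent replicates. Of 508 genes at least 1 log2 unit above wild type in the ubp10 null (10.2% of 4966), 94 were as much higher in the double null than on the sir4-labelled array, or 18.5%, against 9.40% of all genes. Of 551 genes lower in the ubp10 null (11.1%), 35 were lower in the other background, or 6.35%, against 2.94%. For the removal of SIR4, with UBP10 absent and present, r was 0.41 (Spearman 0.44). Of 287 genes higher on the sir4-labelled array than in the wild type (5.78%), 118 were as far above the ubp10 null in the double null, or 41.1%, against 16.4% of all genes. Of 636 lower there (12.8%), 249 were lower, or 39.2%, against 14.8%. Genes chosen for a large difference on 1 pair of arrays tend to show a smaller one on another pair. Both SIR4 comparisons set an array with a low 98th percentile of scaled intensity against an array with a high one. These were 839.6 units in the double null and 845.6 on the sir4-labelled array, against 1835.7 in the ubp10 null and 1801.8 in the wild type. The part of this split in the SIR4 correlation and counts was not tested. Under quantile normalization the correlations were 0.15 for UBP10 and 0.32 for SIR4.

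**Figure D5:**
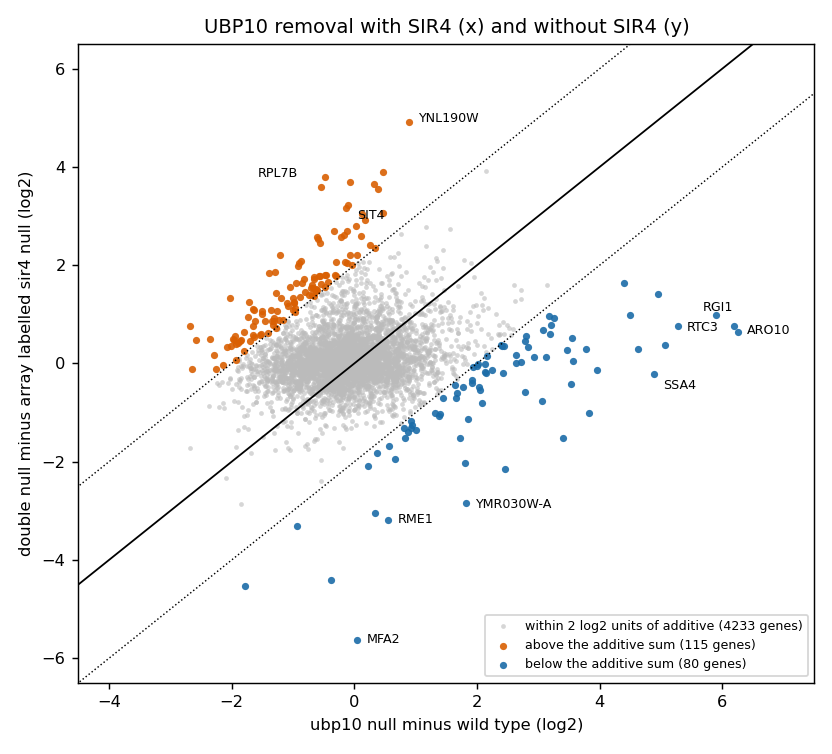
Log2 difference of the double null from the sir4-labelled array against that of the ubp10 null from the wild type, 1 point for each of 4428 genes above the floor on all arrays. On the solid line the removals add up, and beyond the dotted lines the departure is at least 2 log2 units. The 80 genes below it (blue) reach far to the right, as with ARO10 and RGI1, or far down, as with MFA2.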

How the data were processed

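The authors deposited 1 linear intensity per probe set and array, an average difference computed with MAS 4.0, per the labels. Between 7.2% and 9.2% of values were below 0, and no source used here states a scaling. The trimmed mean of the deposited values was nevertheless close to 100 on each array. It was 99.9 in the double null, 99.5 in the ubp10 null, 100.1 on the sir4-labelled array and 99.5 in the wild type. Of 9275 probe sets that were not controls, 6504 had 1 gene symbol, all matched to the RefSeq gene table, 328 had several and 2443 were not listed. From these deposited intensities, each array was divided by a factor of 0.821 to 1.22, from the median of 5781 probe sets above the floor throughout, then floored and put on the log2 scale. The noise SD was 2.32 units, from the negative values mirrored about 0. By probe set, 258 lay above the sum and 200 below. Named genes were the targeted genes, the 12 largest departures per direction measured throughout, the 6 largest bounds per direction, the 6 largest unresolved, up to 4 called members of lists with at least 1 in 5 called, and the 4 largest per pattern. The members, lists and rules were chosen with earlier results of these data known. The calling code was tested on simulated data. Alternatives covered normalization, floor, thresholds, probe sets and the scale of the sum. Computation used Python 3.11.15 with pandas 2.3.3 and R 4.3.3 with limma 3.58.1.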

Additional observations from a re-analysis of the deposited data

Results flagged for a closer look

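In 7 named genes above the floor on all arrays, UBP10 removal came with opposite differences with and without SIR4, as labelled. Each difference was at least 1 log2 unit in size. With 1 array per strain the difference was not tested. The double null minus the sir4-labelled array, and then the ubp10 null minus the wild type, came to -1.51 and 3.41 in YGP1 (departure -4.92), to -1.01 and 3.83 in PHM8 (-4.84), to -2.84 and 1.81 in YMR030W-A (-4.65) and to -2.15 and 2.45 in the tRNA gene YNCL0007W (-4.60). The directions were the other way round in TEA1, at 2.21 and -1.22 (3.43), in NIT1, at 1.33 and -2.03 (3.35), and in GSF2, at 1.83 and -1.40 (3.23). Among all 195 genes counted and measured throughout, 28 had such opposite differences, 11 of them higher with SIR4 present and lower without it and 17 the reverse.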

How the results depend on the processing

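By probe set, 258 lay above the sum and 200 below. Quantile normalization, cyclic loess, omitted centring, a floor set before centring, a halved floor, the larger single effect, a brightness minimum of 4 times the floor, plain probe sets, no rule on the floor and omission of strongly negative values each kept both counts within 1.5 times. The larger changes were 131 below with the floor doubled, 439 above with the sum on linear intensity, 1136 above and 757 below at a departure of at least 1, and 82 and 65 at 3. They also included 169 above at a brightness minimum of 8 times the floor, 159 above among probe sets above the floor throughout, 123 below with 1 gene symbol only, and 129 above and 437 below with the difference of the sir4-labelled array set to 0. The omission of negative values, the limit to 1 gene symbol and the difference set to 0 were chosen after seeing the data. Similar counts did not always mean the same probe sets. Of the 258 and 200, 165 and 117 were called again with the larger single effect, and 168 and 133 with the linear sum. Quantile normalization kept 245 and 190, and cyclic loess 239 and 193. Of the 58 named genes, YNL190W turned to -1.15 with the linear sum, and 8 others fell under the threshold there, 7 with the larger single effect, 4 with the floor doubled and 1, RPS0A, with plain probe sets. No counted named gene came under 2 log2 units under the 4 other normalization or centring settings or with the floor halved. The departures that the floor left unresolved moved with it, FMP48 to -5.30 and MGA1 to -5.88 with the floor halved, and MGA1, YRO2 and FMP48 to -3.88, -3.85 and -2.84 with it doubled. With the floor halved, the values that had left FMP48 and YRO2 (-5.06) unresolved no longer did so. Of 35 list medians, that of the a-specific genes moved to -3.57 under cyclic loess and to -2.13 with the floor doubled, and that of the tRNA genes to -0.82 with the floor doubled. No paired analysis was possible because each strain had 1 array, and for the same reason no array could be left out as a replicate. Dim genes are limited by the floor, which left 262 of 4966 genes unresolved.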
